A study of Homo sapiens with 4 samples.

Results

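The small nucleolar RNA (snoRNA) host genes described here were the genes of the deposited table with a symbol made of SNHG and a number, together with GAS5, ZFAS1, DANCR and EPB41L4A-AS1. This rule found 29 of the 58735 genes, under 28 symbols, since SNHG28 was listed for 2 gene identifiers. U251 and U87, 2 established lines of human glioblastoma, gave 4 RNA libraries, 1 each for U251 Control, U251 Bru, U87 Control and U87 Bru. Bru is brusatol, a plant quassinoid known as an inhibitor of the transcription factor NRF2 and of protein synthesis. It was dissolved in DMSO and given at the IC50 for 48 h. The study names DMSO alone as the control of other assays, and does not state what the sequenced Control cells received. Each condition of each line had 1 library, so a difference within a line has no replicate check and no test, and the only p-values are those of a fit over both lines together. Intervals are exact 95% intervals of the read ratio, and they cover counting error only.

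A snoRNA guides the chemical modification of ribosomal or spliceosomal RNA, and most human snoRNAs are cut out of an intron of a longer host transcript. Box C/D snoRNAs, named SNORD, direct methylation, box H/ACA snoRNAs, named SNORA, direct pseudouridylation, and SCARNA genes encode related RNAs of the Cajal body. The spliced exons of several hosts code for no long protein but leave the nucleus and are bound by ribosomes. They are then degraded by nonsense-mediated decay (NMD), a pathway that needs translation, and GAS5, SNHG1 and ZFAS1 are textbook cases whose spliced RNA accumulates when translation is blocked. Many host genes also start with a terminal oligopyrimidine (TOP) tract, a run of C and T that they share with the genes of ribosomal proteins.

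Levels are given as FPKM, fragment counts corrected for gene length and library size. The length of a host gene was the union of its annotated exons, with bases shared with other genes included. Levels can therefore be compared only roughly between genes. The FPKM times the gene length were whole multiples of 1 step in each library, so the fragments counted for each gene, called reads here, could be recovered. The libraries held from 17083896 to 21453561 reads on genes. Ratios were counted over genes whose FPKM averaged 1 or more across the libraries, which 24 of the 29 host genes and 12949 genes in all reached. VIM and CD44, which mesenchymal and glioma cells express, were high in every library, from 606 to 701 FPKM and from 94.5 to 125. The neural progenitor markers SOX2 and NES were 129 and 125 FPKM in U251 Control but 0 and 1.46 in U87 Control, and the astrocyte gene GFAP did not exceed 2.42 FPKM in any library. Of the other glial markers, OLIG2 did not exceed 1.05 FPKM (U87 Bru) and S100B did not exceed 0.296 (U251 Control). The leukocyte marker PTPRC did not exceed 0.0156 FPKM, and CD3E was listed at 0 throughout. PECAM1 and EPCAM, looked up as markers of other cells, were highest in U87 Control, at 0.499 and 0.330 FPKM.

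The host genes took a larger share of the reads in the Bru library of both lines. Their share was 0.108% in U251 Control (95% exact binomial interval from 0.107% to 0.110%) and 0.199% in U251 Bru (0.197% to 0.201%). In U87 it was 0.109% in Control (0.107% to 0.110%) and 0.140% in Bru (0.138% to 0.141%). The intervals of Bru and Control did not overlap in either line, and they hold no error between cultures. RNA of a whole culture was measured, so a change in the mix of cells and a change in the RNA of each cell cannot be told apart.

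In U251, 6 of the 24 host genes had a log2 ratio of Bru to Control above 1, where 3.36% of all genes tested had one. They were ZFAS1, SNHG8, SNHG5, GAS5, SNHG9 and SNHG1. None of the 24 was below -1, against 5.44% of all genes. A ratio above 0 was found for 19 of the 24, against 47.2% of all genes, and the median log2 ratio was 0.43 for the host genes and -0.03 for all genes. In 16 host genes the whole interval lay above the median of all genes (32.7% of all genes), and in 2, SNHG16 and SNHG20, it lay below (34.0%).

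In U87 the shift was in the same direction with smaller ratios. The ratios of all genes were also spread less there, with quartiles of -0.20 and 0.12 against -0.38 and 0.30 in U251. No host gene of the 24 was above 1, where 1.92% of all genes were, and none was below -1, where 1.41% were. A ratio above 0 was found for 18 of the 24 against 42.3% of all genes, and the median log2 ratio was 0.36 against -0.04. The whole interval lay above the median of all genes for 15 host genes (20.0% of all genes) and below it for 3 (22.9%), namely DANCR, SNHG18 and SNHG21.

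**Figure D1:**
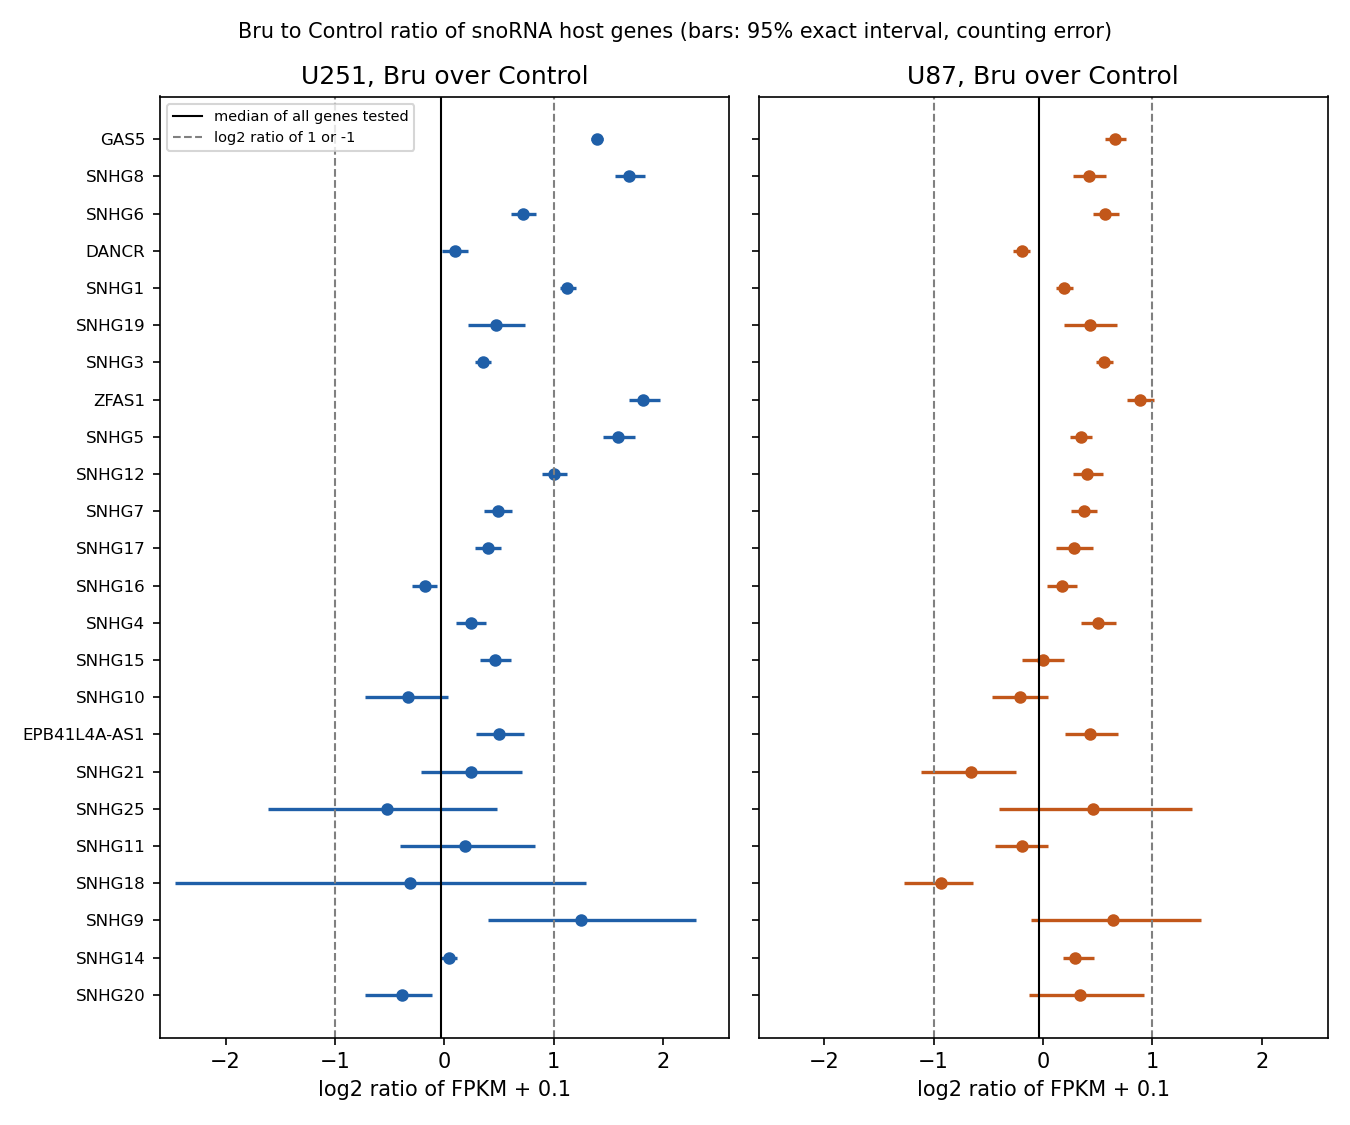
Log2 ratio of Bru to Control (FPKM + 0.1) of the 24 host genes tested, in U251 (left) and U87 (right), ordered by mean FPKM. Points are 1 library against 1 library, bars are exact 95% intervals for counting error, the solid line is the median of all 12949 genes and dashed lines mark log2 ratios of 1 and -1. In U251 the points of 6 genes lie above 1, and in U87 no point does, with ZFAS1 the highest at 0.89.

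ZFAS1 (ENSG00000177410, chr20:49278178-49295738, plus strand, GRCh38) had the highest ratio of the 24 in both lines. It carries SNORD12, SNORD12B and SNORD12C and runs antisense to ZNFX1. Control and Bru of U251 gave 12.1 and 43.0 FPKM, and those of U87 gave 19.9 and 36.9. The Bru library was the higher one of both lines, by a log2 ratio of 1.82 (1.69 to 1.97) in U251 and 0.89 (0.77 to 1.02) in U87. Of the ZFAS1 exon bases, 46.9% were also exon bases of other genes, ZNFX1 among them, whose own log2 ratios were 0.04 and -0.01.

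GAS5 (ENSG00000234741, chr1:173863900-173868882, minus strand), first known as a transcript of growth-arrested cells, was the most abundant host gene in both U251 libraries. Its FPKM there was 53.0 for Control and 139 for Bru, from 4035 and 9363 reads, whereas the U87 libraries stood at 22.0 and 34.8. These values gave log2 ratios of 1.39 (1.34 to 1.45) and 0.66 (0.57 to 0.76). GAS5 is known as a host of box C/D snoRNAs, but the deposited gene table lists no snoRNA gene within it, and only 1.2% of its exon bases were shared with another gene, GAS5-AS1.

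SNHG1 (ENSG00000255717, chr11:62851988-62855914, minus strand) carries 6 listed SNORD genes, from SNORD22 to SNORD30. In U251 its FPKM was 29.2 for Control and 63.9 for Bru, and in U87 40.9 and 46.9. The U251 log2 ratio of 1.13 (1.05 to 1.20) was far from the 0.20 (0.12 to 0.27) of U87. SNHG5 (ENSG00000203875, chr6:85660950-85678748, minus strand), which carries SNORD50B, measured 9.12 and 27.6 FPKM in U251 and 30.8 and 39.2 in U87. Its level in U251 Bru was thus close to that of U87 Control, after a log2 ratio of 1.59 (1.45 to 1.74) in U251 against 0.35 (0.25 to 0.44) in U87.

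SNHG8 (ENSG00000269893, chr4:118278709-118279823, plus strand) carries SNORA24, a box H/ACA guide. U251 cells held 30.9 FPKM of it as Control and 99.9 with Bru, and U87 cells 37.9 and 50.7. The U251 log2 ratio was 1.69 (1.56 to 1.83), and that of U87 was 0.42 (0.27 to 0.57). SNHG9, the host of SNORA78, was the sixth gene past 2-fold in U251 but rested on few reads, 15 in Control and 33 in Bru. Its FPKM was 1.3 and 3.23 in U251 and 2.51 and 3.96 in U87, and its log2 ratios were 1.25 (0.40 to 2.30) and 0.64 (-0.11 to 1.45). With the whole interval required to be past 2-fold, an alternative chosen after seeing the data, 5 of the 6 remained and SNHG9 did not. The share of all genes past this stricter limit was not counted.

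Just under the limit in U251 was SNHG12, antisense to TRNAU1AP, which carries SNORD99 and SNORA genes. In U251 it measured 10.8 FPKM as Control and 21.8 with Bru, at a log2 ratio of 0.999 (0.89 to 1.12), and in U87 9.85 and 13.1 FPKM, at 0.41 (0.27 to 0.55). The next gene, SNHG6, the host of SNORD87, had 39.0 and 64.4 FPKM in U251 and 43.8 and 65.0 in U87. Its log2 ratios were alike in both lines, 0.72 (0.61 to 0.84) and 0.57 (0.45 to 0.69).

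**Figure D2:**
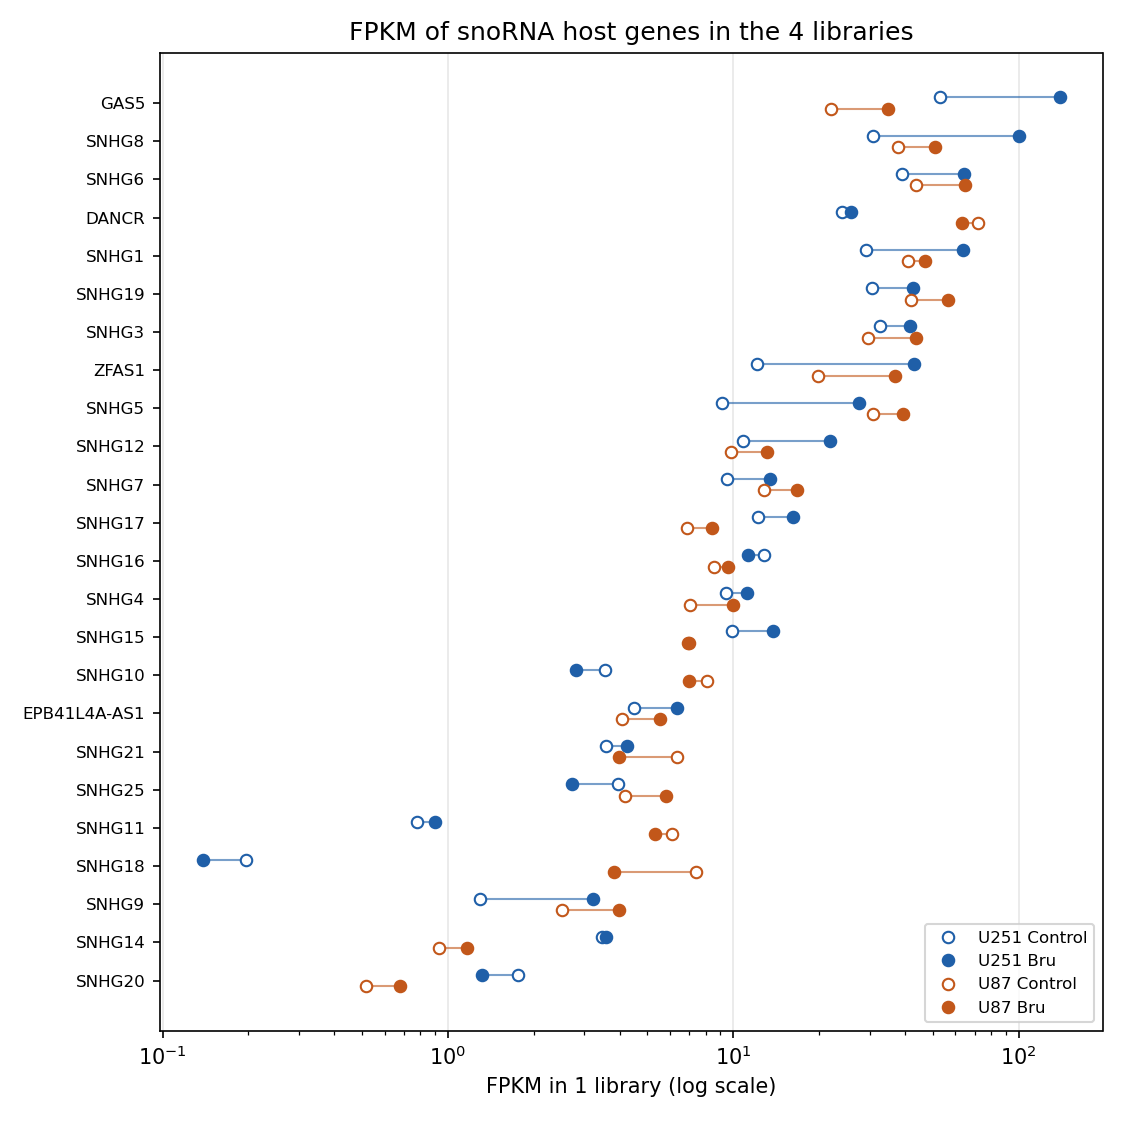
FPKM of the 24 host genes on a log scale, 1 point for each library, with open points for Control, filled points for Bru and a line joining both libraries of a line (U251 blue, U87 orange). Filled points lie to the right of open points for 19 genes in U251 and 18 in U87, and the widest lines are those of ZFAS1, SNHG8 and SNHG5 in U251.

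A group of abundant hosts showed ratios between 0.2 and 0.6 in both lines. SNHG3, which carries the long H/ACA RNA genes SNORA73A and SNORA73B, measured 32.7 FPKM in Control and 41.6 in Bru of U251, and 29.6 and 43.6 in U87. SNHG19, the host of SNORD60, measured 30.7 and 42.6 FPKM in U251 and 41.9 and 56.6 in U87. SNHG3 had the larger ratio in U87, 0.56 (0.48 to 0.64) against 0.35 (0.28 to 0.42), while SNHG19 was nearly equal at 0.47 (0.21 to 0.74) in U251 and 0.43 (0.20 to 0.67) in U87.

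SNHG7, the host of SNORA17A and SNORA17B, had 9.54 and 13.4 FPKM in U251 and 12.8 and 16.7 in U87, with log2 ratios of 0.49 and 0.37. SNHG17, which carries 4 genes of the SNORA71 family, had 12.2 and 16.1 FPKM in U251 and 6.87 and 8.40 in U87, with log2 ratios of 0.40 and 0.29. SNHG4, the host of SNORA74 genes, had 9.44 and 11.2 FPKM in U251 and 7.03 and 9.99 in U87, with log2 ratios of 0.24 and 0.50. EPB41L4A-AS1, the host of SNORA13, lies antisense to EPB41L4A over 49.6% of its exon bases. Its FPKM was 4.48 and 6.36 in U251 and 4.07 and 5.53 in U87, and its log2 ratios were 0.50 (0.29 to 0.72) and 0.43 (0.20 to 0.69). All of these genes were higher in Bru in each line, and their intervals lay above the median of all genes.

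SNHG15, the host of SNORA9, was higher in Bru in U251, with 9.92 FPKM in Control and 13.7 in Bru and a log2 ratio of 0.47 (0.33 to 0.61). In U87 it measured 6.96 FPKM in Control and 6.95 in Bru, and its interval ran from -0.20 to 0.19. SNHG14, the very long transcript across the imprinted Prader-Willi region and host of the SNORD115 and SNORD116 repeats, measured 3.46 and 3.57 FPKM in U251 and 0.929 and 1.2 in U87. The log2 ratios were 0.04 (-0.03 to 0.12) and 0.30 (0.18 to 0.47).

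Not every host was higher in Bru. DANCR, an RNA known for holding back differentiation and the host of SNORA26, measured 24.1 FPKM as Control and 25.8 with Bru in U251, at a log2 ratio of 0.10 (-0.02 to 0.22). In U87 it was the most abundant host gene of the Control library at 72.3 FPKM and stood at 63.1 in Bru, a log2 ratio of -0.20 (-0.27 to -0.12). SNHG16, the host of SNORD1A, SNORD1B and SNORD1C, measured 12.8 and 11.3 FPKM in U251 and 8.54 and 9.61 in U87. Its ratios had opposite signs, -0.18 (-0.29 to -0.07) in U251 and 0.17 (0.03 to 0.31) in U87.

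SNHG10, SNHG20 and SNHG21 carry SCARNA genes. SNHG10 measured 3.55 and 2.80 FPKM in U251 and 8.08 and 6.97 in U87, with log2 ratios of -0.33 (-0.72 to 0.03) and -0.21 (-0.47 to 0.04). It shares 20.1% of its exon bases with GLRX5, whose own log2 ratios were -0.23 and -0.16. SNHG20 measured 1.76 and 1.32 FPKM in U251 and 0.518 and 0.680 in U87, with log2 ratios of -0.39 (-0.72 to -0.11) and 0.33 (-0.13 to 0.92). SNHG20 shares exon bases with SEC14L1, whose own log2 ratios were -0.95 and 0.04. SNHG21 measured 3.58 and 4.25 FPKM in U251 and 6.36 and 3.98 in U87, with log2 ratios of 0.24 (-0.21 to 0.71) and -0.66 (-1.11 to -0.24). Other genes share 72.9% of the SNHG21 exon bases.

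SNHG18, the host of SNORD123, had the lowest ratio of the 24 in U87. Its FPKM there was 7.40 as Control and 3.83 with Bru, and the log2 ratio was -0.93 (-1.27 to -0.64). In U251 it was close to the floor, with 8 reads in Control and 5 in Bru, and its interval ran from -2.46 to 1.29. SNHG11, which carries SNORA60 and SNORA71E, measured 0.780 and 0.902 FPKM in U251 and 6.10 and 5.33 in U87, with log2 ratios of 0.19 (-0.41 to 0.83) and -0.19 (-0.44 to 0.05). SNHG25, a gene of 278 bases with SNORD104 and SNORA50C, had only 14 to 28 reads in a library. Its FPKM was 3.94 and 2.72 in U251 and 4.18 and 5.79 in U87, and both of its intervals contained 0, from -1.61 to 0.48 and from -0.40 to 1.36.

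The other 5 host genes did not reach the mean FPKM of 1. SNHG26 had 1 and 3 reads in U251 and 35 and 38 reads in U87. SNHG22 had 0 or 1 read in each library, the SNHG28 gene listed as protein coding had 4 to 13, and the second SNHG28 entry and SNHG27 were at 0 in all libraries. A gene of 1 kilobase with 3 reads, the limit a count of 0 allows, would have an FPKM of 0.143 to 0.172 at these depths.

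Grouped by the listed snoRNA genes they carry, 10 hosts carried SNORA genes only, and their median log2 ratios were 0.43 for U251 and 0.40 for U87, with 10 and 7 of them above 0. The 8 hosts with SNORD genes only had medians of 0.60 and 0.32, with 6 and 7 above 0. The 3 hosts of SCARNA genes had medians of -0.33 and -0.21, with 1 above 0 in each line. Both medians are the values of SNHG10, whose intervals contained 0, and all 3 share exon bases with other genes. Among all genes tested, 47.2% were above 0 in U251 and 42.3% in U87. SNHG12 and SNHG25 carry more than 1 class, and GAS5 has none listed. Hosts of SNORA and of SNORD genes thus overlapped over most of their range, from 0.10 to 1.69 and from -0.31 to 1.82 in U251.

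The comparison between lines was made as the difference of the log2 ratios, U251 minus U87, which share no library. It was above 1 for 2 host genes, SNHG8 at 1.27 (1.07 to 1.48) and SNHG5 at 1.24 (1.08 to 1.43), where 3.37% of all genes tested were. It was below -1 for none, against 5.11% of all genes. It was above 0 for 17 of the 24, against 50.9% of all genes, and the median difference was 0.22 against 0.01. A Wald interval of the difference for counting error, computed alike for every gene, lay above 0 for 9 of the 24 (26.3% of all genes) and below 0 for 5, SNHG3, SNHG4, SNHG14, SNHG16 and SNHG20 (24.6% of all genes). Among the 9 were SNHG1 at 0.93 (0.83 to 1.04), ZFAS1 at 0.93 (0.75 to 1.12) and GAS5 at 0.73 (0.62 to 0.84), with the intervals of the single genes from the exact bounds of the reads. The doses behind the IC50 in each line were not analysed here, so dose and line cannot be told apart in this difference.

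A log2 ratio above 0 in both lines was found for 15 of the 24 host genes, where 28.1% of all genes had one, and 13 had intervals above the median of all genes in both, where 12.9% of all genes did. These 13 were GAS5, ZFAS1, EPB41L4A-AS1, SNHG1, SNHG3, SNHG4, SNHG5, SNHG6, SNHG7, SNHG8, SNHG12, SNHG17 and SNHG19. SNHG10 and SNHG18 were below 0 in both lines, and the other 7 had opposite signs. Across the 24 genes the ratios of both lines had a Spearman rho of 0.54, and across all genes 0.40. These values describe genes of the same 4 libraries, which are not independent replicates.

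With both lines taken as pairs, an analysis added after seeing the data, Bru was compared with Control over the 4 libraries (limma, with the line as a block and 1 residual degree of freedom). No host gene of the 24 had a Benjamini-Hochberg adjusted p under 0.05, and neither did any of the 12949 genes (0.0%). At an unadjusted p under 0.05 there were 12 of the 24, all with a higher mean in Bru, against 14.2% of all genes in either direction. ZFAS1 had the smallest adjusted p of the host genes (limma, 0.129), at a mean log2 ratio over both lines of 1.35, and GAS5 followed at 1.03 (adjusted p = 0.173). With the filter raised to a mean FPKM of 5, ZFAS1 and GAS5 passed among 17 host genes (adjusted p = 0.0124 and 0.0327), and so did 132 of the 7578 genes then tested. The smallest adjusted p of a host gene ranged from 0.0124 to 0.484 over the settings of this fit.

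**Figure D3:**
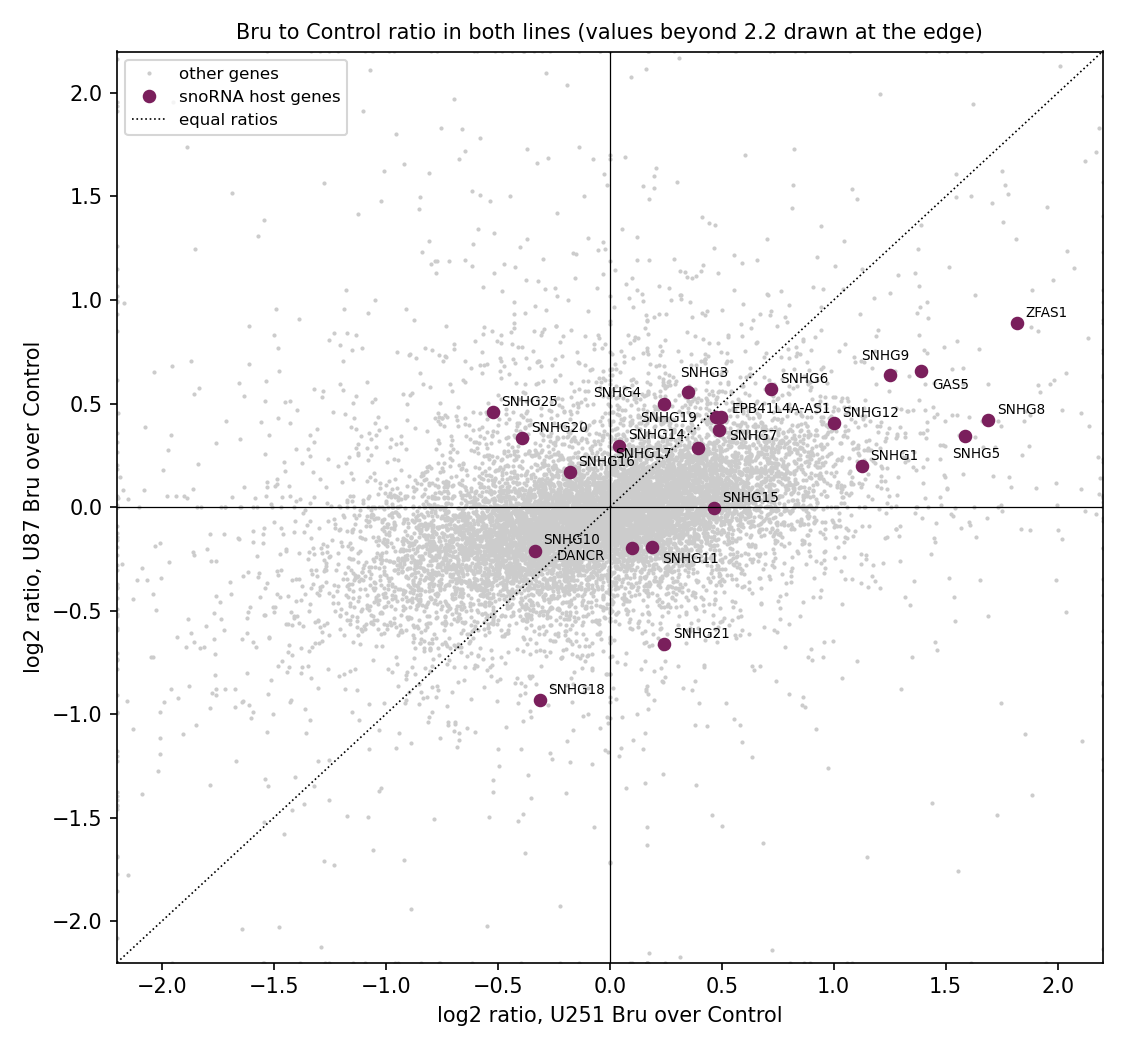
Log2 ratio of Bru to Control in U251 (x axis) and U87 (y axis) for the 24 host genes (large points, named) over the other genes tested (small points), with values beyond 2.2 drawn at the edge. 15 host genes lie above 0 on both axes, and ZFAS1, GAS5, SNHG1, SNHG5, SNHG8 and SNHG9 lie right of 1 and under the dotted line of equal ratios.

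The Control libraries of both lines were compared next. In U87 Control over U251 Control, 5 of the 24 host genes had a log2 ratio above 1, where 14.5% of all genes had one, and 3 were below -1, where 16.0% were. SNHG18 was higher in U87 by 4.67 (4.24 to 6.47), from 8 reads in U251 Control to 261 in U87 Control, followed by SNHG11 at 2.82 (2.52 to 3.45), SNHG5 at 1.75, DANCR at 1.58 and SNHG10 at 1.2. Lower in U87 were SNHG14 at -1.79 (-2.02 to -1.78), SNHG20 at -1.59 and GAS5 at -1.26. The shares past 2-fold, 20.8% above and 12.5% below, were near those of all genes.

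GAS5 led both U251 libraries. In U251 Control it was followed by SNHG6, SNHG3, SNHG8, SNHG19 and SNHG1, and in U251 Bru by SNHG8, SNHG6, SNHG1, ZFAS1 and SNHG19. ZFAS1 thus moved from rank 10 to rank 5 of the 24, SNHG8 from 4 to 2, SNHG1 from 6 to 4 and SNHG3 from 3 to 7. In U87 Control the order was DANCR, SNHG6, SNHG19, SNHG1 and SNHG8, and with Bru SNHG6 and DANCR had changed places at 65.0 and 63.1 FPKM. The error between cultures that would place such neighbours was not measured. The order is also uncertain because hosts differ in exon bases shared with other genes, 46.9% for ZFAS1 and 1.2% for GAS5.

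The first bases of annotated transcripts are shown for the abundant hosts because a TOP start is a feature that the choice of genes did not use. They are the first 30 bases, 5′ to 3′, of 1 transcript of GENCODE release 29 (GRCh38) for each gene, and capitals mark the unbroken run of C and T at a start that fulfils the rule of C followed by 4 bases that are each C or T.
GAS5-210, chr1, first base 173867989, minus strand: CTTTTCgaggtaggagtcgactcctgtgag
ZFAS1-201, chr20, first base 49278642, plus strand: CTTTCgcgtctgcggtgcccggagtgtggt
SNHG8-205, chr4, first base 118278758, plus strand: CTTTCacattcgggaagcgtcgggattagg
SNHG5-202, chr6, first base 85678733, minus strand: CTTTTacgtcggccttcgcgagcgtctggg
SNHG1-203, chr11, first base 62855479, minus strand: CTCCTgtctgcaggatttacgcgcacgttg
SNHG12-202, chr1, first base 28581873, minus strand: CCTTTCTCCCCgccgcattcccggtgtcga
SNHG19-201, chr16, first base 2155358, minus strand: CTTTTCggggtcgagtccgagggggaagag
SNHG3-203, chr1, first base 28506043, plus strand: CCTTTTTggagacagattcgcagtggtcgc
SNHG16-204, chr17, first base 76557769, plus strand: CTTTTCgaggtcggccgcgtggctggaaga
SNHG17-201, chr20, first base 38435353, minus strand: cgtagcttccttgtcgtgtggcctcagtcc
SNHG7-201, chr9, first base 136728184, minus strand: ctctgcgtgcgccggaggctgccgtggcgg
DANCR-201, chr4, first base 52712404, plus strand: agagtcttcccgggattggctgcgggcctc
No annotated transcript of SNHG17, SNHG7 or DANCR had such a start, and their lowest-numbered transcript is shown. For the others it is the lowest-numbered transcript with a TOP start. SNHG6, which also has 3 annotated transcripts with such a start, is not shown.

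At least 1 annotated transcript with a TOP start was found for 14 of the 24 host genes (58.3%), where 16.1% of the 12943 genes tested with annotated transcripts had one. The share was 81% for the genes of cytosolic ribosomal proteins and 5.86% for other long noncoding genes. Of single transcripts, 13.8% began so for the host genes and 2.67% for all genes, and the median number of transcripts per gene was 6.5 against 7. For the 14 hosts with such a start the median log2 ratios were 0.60 (U251) and 0.43 (U87), and for the 10 without they were 0.32 and 0.29. The FPKM level was not held equal between these groups. SNHG16, SNHG18 and SNHG25, with ratios below 0 in U251, had a TOP start, and SNHG9, above 1 in U251, had none. The count of 14 accepts any annotated transcript, and for SNHG1 only 1 of 25 transcripts had such a start. At the RefSeq start alone, 6 of the 20 tested host genes with a RefSeq promoter met the rule. So did 5.43% of the promoters of genes tested and 64.3% of those of cytosolic ribosomal proteins. The RefSeq starts of SNHG1 and SNHG8 did not meet it. Which start the cells used was not measured.

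The promoters held a second feature. In the 50 bases before the RefSeq start, read on the strand of the gene, the letters TATAA occurred in 6 of the 20 tested host genes with a RefSeq promoter in the table used here. They occurred in 4.74% of the 35116 promoters, in 2.79% of those of genes tested and in 11.4% of those of ribosomal proteins. The promoters of these 6 genes are printed from 50 bases before the start to 29 after it (RefSeq, GRCh38.p14), with TATAA and the first transcribed base in capitals.
ZFAS1, chr20:49278592-49278671, plus strand: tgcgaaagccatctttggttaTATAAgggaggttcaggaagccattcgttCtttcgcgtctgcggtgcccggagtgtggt
SNHG8, chr4:118278712-118278791, plus strand: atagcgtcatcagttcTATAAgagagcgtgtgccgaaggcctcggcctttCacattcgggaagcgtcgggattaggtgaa
SNHG5, chr6:85678704-85678783, minus strand: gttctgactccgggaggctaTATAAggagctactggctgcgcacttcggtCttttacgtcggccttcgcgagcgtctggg
SNHG12, chr1:28581844-28581923, minus strand: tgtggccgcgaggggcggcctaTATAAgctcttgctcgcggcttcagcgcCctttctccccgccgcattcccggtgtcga
SNHG7, chr9:136728155-136728234, minus strand: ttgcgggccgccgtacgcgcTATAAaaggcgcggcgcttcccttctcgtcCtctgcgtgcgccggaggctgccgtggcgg
SNHG19, chr16:2155329-2155408, minus strand: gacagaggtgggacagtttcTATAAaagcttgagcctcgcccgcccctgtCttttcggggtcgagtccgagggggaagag
In these windows TATAA began 28 to 34 bases before the start. The promoters of DANCR and SNHG16 held no TATAA there and are printed for comparison. Both had low log2 ratios in U251, 0.10 and -0.18. They do not stand for all hosts without TATAA, since GAS5 at 1.39 and SNHG1 at 1.13 also lack it and are not printed.
DANCR, chr4:52712344-52712423, plus strand: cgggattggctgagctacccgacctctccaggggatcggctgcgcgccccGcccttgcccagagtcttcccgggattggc
SNHG16, chr17:76557714-76557793, plus strand: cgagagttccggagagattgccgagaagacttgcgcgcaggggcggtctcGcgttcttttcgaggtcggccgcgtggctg
The 6 hosts with TATAA had log2 ratios from 0.47 to 1.82 in U251, with a median of 1.29, and from 0.35 to 0.89 in U87, with a median of 0.41. The 14 hosts without ranged from -0.39 to 1.39 and from -0.93 to 0.66, with medians of 0.21 and 0.24. GAS5 and SNHG1 were among the 14, so a ratio above 1 was found on both sides. The median log2 ratio in U251 also rose with level. It was 0.04 for hosts averaging 1 to 5 FPKM, 0.43 at 5 to 20 and 1.13 at 20 or more. In U87 it was 0.30, 0.33 and 0.43. The 6 hosts with TATAA averaged 13.1 to 54.9 FPKM, while the 14 without reached down to 1.07. Whether the letters or the level go with the ratio was not tested. The RefSeq starts of GAS5, SNHG1, SNHG3, SNHG8, SNHG16, SNHG17 and DANCR are not the transcript starts printed above. Their search therefore covered a window placed from another start. The search was chosen with the ratios known and is a description of letters, not of a bound factor.

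The snoRNA genes inside the hosts held few reads, and the reason was not tested. The gene table listed 129 of them in 25 hosts, 83 in SNHG14 alone. Of these, 36 lay wholly in exons of their host and all 36 were at 0 reads in every library. Of the 93 that did not, 38 had a read in some library. Outside SNHG14, 18 of the 21 that did not lie wholly in exons had a read, and 0 of the 25 that did. In SNHG14, 20 of 83 had a read. How reads over a shared base were assigned is not given in the sources used here.

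Outside SNHG14, the snoRNA genes that did not lie wholly in exons held 246 reads as Control and 330 with Bru in U251, and 240 and 378 reads in U87. The log2 ratios of these sums were 0.60 (0.36 to 0.85) for U251 and 0.71 (0.47 to 0.95) for U87. The Bru library was thus the higher one in each line, and the intervals of both lines overlapped, unlike those of ZFAS1, SNHG8 or SNHG5. Reads from an unspliced host transcript and reads from a snoRNA cannot be told apart in these counts.

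SNORA73B in SNHG3 was the best covered, with 80 reads as Control and 119 with Bru in U251, and 66 and 117 reads in U87. Its log2 ratios were 0.75 (0.33 to 1.18) and 0.88 (0.43 to 1.34), next to 0.35 and 0.56 for its host. In ZFAS1, SNORD12B had 36, 52, 27 and 53 reads and SNORD12C had 10, 12, 15 and 28. Their log2 ratios in U251 were 0.71 and 0.44, next to 1.82 for ZFAS1 itself, and the interval of SNORD12B, from 0.07 to 1.36, lay below that of its host. In U87 the log2 ratios of SNORD12B and SNORD12C were 1.03 and 0.95, next to 0.89 for ZFAS1, and both intervals contained that value. SNORD104 in SNHG25 had 29, 33, 36 and 58 reads, and SNORD99 in SNHG12 had 14, 22, 14 and 45. The U87 log2 ratio of SNORD99, 1.74 (0.85 to 2.72), lay above the 0.41 (0.27 to 0.55) of its host.

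Outside SNHG14, 3 box C/D snoRNA genes with at least 20 reads held both short motifs, and they are printed because their reads can be set beside those of the host. Capitals mark the first TGATGA, the core of box C, and the last CTGA, box D, on the transcript strand (GENCODE release 29, GRCh38).
SNORD12B, chr20:49280319-49280409, plus strand: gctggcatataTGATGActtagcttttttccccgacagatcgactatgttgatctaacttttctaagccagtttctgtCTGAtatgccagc
SNORD12C, chr20:49278940-49279028, plus strand: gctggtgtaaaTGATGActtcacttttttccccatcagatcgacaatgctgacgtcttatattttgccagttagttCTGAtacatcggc
SNORD104, chr17:64146083-64146152, plus strand: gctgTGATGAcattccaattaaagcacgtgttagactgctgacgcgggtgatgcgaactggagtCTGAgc
SNORD12B and SNORD12C lie in the same host.

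Other lists place the host genes. Of all genes tested, 47.2% were above 0 in U251 and 42.3% in U87, and 3.36% and 1.92% were above 1. The 84 tested genes of cytosolic ribosomal proteins, which share the TOP start, had median log2 ratios of 0.69 (U251) and 0.32 (U87). Of these, 82 and 81 were above 0, and 3 and 0 were above 1. The largest mean absolute log2 ratios over both lines were those of RPS18 at 1.17 and 0.67, RPL26 at 1.07 and 0.51, and RPL36 at 0.87 and 0.63. The host genes had the lower median in U251 and the wider range, from -0.52 to 1.82 against -0.02 to 1.17, and 6 of 24 against 3 of 84 were above 1.

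Coding genes also carry snoRNAs in their introns. The 144 tested coding hosts had a U251 median of 0.22 and a U87 median of 0.06, and 94 and 97 of them were above 0. Split by product, the 28 that encode ribosomal proteins had medians of 0.69 and 0.33 with all 28 above 0 in each line, and the other 116 had 0.06 and 0.02. RPL37 at 0.94 and 0.49 and RPS12 at 0.95 and 0.41 were among the highest, and so was C6orf48 at 0.97 and 0.35. For the 973 other long noncoding genes the U251 median was 0.00 and the U87 median 0.06, with 72 and 54 above 1 and 93 and 27 below -1. The largest mean absolute log2 ratios among them were those of AC078788.2, with 0.283 FPKM in U251 Bru, 4.96 in U87 Bru and 0 elsewhere, AC009435.1, at 4.10 FPKM in U87 Bru and 0 elsewhere, and AL121906.1, at -3.76 and -0.91.

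Factors of the decay pathway and its coding targets were measured as well. The 18 NMD factors had a U251 median of 0.23 and a U87 median of 0.06, with 16 and 15 above 0 and none past 2-fold. Of all genes, 47.2% were above 0 in U251 and 42.3% in U87. UPF3B, an exon junction adaptor, stood at 24.1 and 45.1 FPKM in U251 and at 9.63 and 13.1 in U87, and its log2 ratios were 0.90 and 0.44. SMG8 had 0.48 and 0.14, while UPF1, the central helicase, had 0.01 and -0.08.

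The 8 coding genes listed as NMD-sensitive had a U251 median of 0.26 and a U87 median of 0.39. In each line 7 of 8 were above 0, against 47.2% of all genes in U251 and 42.3% in U87. ATF4, the stress transcription factor with upstream reading frames, measured 109 and 168 FPKM in U251 and 39.4 and 61.1 in U87, a log2 ratio of 0.63 in both. ATF3 had 0.20 in U251 and 1.54 in U87, and GADD45B had 0.32 and 0.48. Several of these genes also respond to stress, and that response cannot be told apart from decay here.

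Genes of 17 proteins that build or form snoRNA particles had a U251 median of 0.33 and a U87 median of 0.10. Above 0 were 16 and 14 of them, against 47.2% and 42.3% of all genes, and none was past 2-fold. NUFIP1, an assembly factor, had log2 ratios of 0.90 and 0.17, NHP2 of the H/ACA particle 0.69 and 0.20, and ZNHIT6 0.64 and 0.16. FBL, the methyltransferase of the box C/D particle, had 0.26 and 0.14.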

How the data were processed

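RNA of U251 and U87 cells was sequenced as 4 libraries, with 1 library per condition, prepared with the NEB Next Ultra kit. The methods of the study do not state whether poly(A) RNA was selected or ribosomal RNA removed. The authors deposited FPKM per gene with gene lengths. The submitters' processing notes name HISAT2 2.0.5, StringTie 1.3.3b, featureCounts 1.5.0-p3, DESeq2 1.16.1 and hg18, without their roles. The gene coordinates in the files were those of GENCODE release 29 (GRCh38) for 58724 of 58735 genes, and the lengths of all 29 host genes equalled its exon unions. Whether counting used strand is not given in the sources used here, and 22 of the 24 tested host genes share exon bases with another gene, 12 of them on the other strand, so their counts are uncertain.

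Reads were recovered from the FPKM for 100% of values, within 4.35e-05 reads of a whole number, and no count test was run with 1 library per condition. The fit over both lines used limma 3.58.1 (R 4.3.3) on log2(FPKM + 0.1), with line and treatment as terms and empirical Bayes with a mean trend, and Benjamini-Hochberg adjustment over all genes tested. The library sizes inside the FPKM were 20974002, 18533374, 18070193 and 17406238 for U251 Control, U251 Bru, U87 Control and U87 Bru. The reads on genes were 21453561, 17847910, 18260975 and 17083896 in the same order. Both Control sizes were thus below the reads on genes and both Bru sizes above them. How these sizes were set is not given in the sources used here, and the ratios depend on them. Log2 ratios used FPKM + 0.1, which understates the ratio of low genes, and genes whose FPKM averaged 1 or more. Intervals are exact (Clopper-Pearson) on the reads, scaled by these library sizes, without the pseudocount. Fragments were not marked by molecular identifiers, so intervals and the floor of 3 reads cover counting error only.

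The members and gene lists were chosen with earlier results of these data known. Every host gene past this filter is named, and in each comparison list the 3 genes with the largest mean absolute log2 ratio over both lines. Part of the genes this rule selects is not reported here. UPF1, FBL and the genes that share exons with hosts were named outside this rule, after their values were seen. Alternatives changed the pseudocount, the scaling, the filter on low values and the members counted. Python 3.11.15 with pandas 2.3.3, numpy 2.4.6, scipy 1.17.1 and matplotlib 3.10.9 was used, and the scripts were tested on simulated data. The authors' own comparisons were not used.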

Additional observations from a re-analysis of the deposited data

Results flagged for a closer look

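In 7 of the 24 host genes Bru was above Control in one line and below it in the other. Of all genes tested, 47.2% were above 0 in U251, 42.3% in U87 and only 28.1% in both. Opposite signs were thus common among all genes and are not particular to the host genes. The difference between lines was not tested, since each ratio rests on 1 library per condition. As U251 minus U87 it was 0.30 for DANCR, -0.35 for SNHG16, 0.47 for SNHG15, 0.91 for SNHG21, -0.98 for SNHG25, 0.38 for SNHG11 and -0.73 for SNHG20. The counting interval of the difference contained 0 for SNHG25 and SNHG11 and excluded it for the other 5. The U87 log2 ratio of SNHG15 was -0.004 and changed sign over the alternative settings, from -0.009 to 0.053.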

How the results depend on the processing

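In the paired fit over both lines, with the line as replicate block, the count of host genes with an adjusted p under 0.05 (limma, Benjamini-Hochberg) was 0, and it stayed 0 with a pseudocount of 1 or 0.01 or without a mean trend and was 2 with a minimum mean FPKM of 5. Another pseudocount (1 or 0.01), scaling (median log2 ratio of 0, 75th percentile or TPM) or filter (none, mean FPKM of 0.1 or 5) left the count of host genes above 2-fold in U251 between 5 and 7, where SNHG9 is lost in the lower count and SNHG12 gained in the higher one, and kept both member medians above 0. Scaling to the 75th percentile moved the median of coding hosts in U251 to 0.31 and those of ribosomal proteins to 0.77 and 0.38, and under a minimum mean FPKM of 5, which leaves 17 host genes, 3 and 1 host genes were above and below 2-fold in U87 Control over U251 Control. Of the 24, only SNHG19 and SNHG18 share no exon base with another gene. With these 2 alone the medians were 0.081 in U251 and -0.25 in U87, 0 and 1 were above 2-fold in U251 and in U87 Control over U251 Control, 0 were below 2-fold there, and 1 in each line had an interval above the median of all genes. With the 9 tested hosts that share under 10% of their bases, chosen after seeing the data, 2 were above 2-fold in U251, 3 in U87 Control over U251 Control, and 6 in each line had an interval above the median of all genes. Of all genes tested, 3.36% were above 2-fold in U251 and 14.5% in U87 Control over U251 Control. Such an interval was found for 32.7% of all genes in U251 and 20.0% in U87. Depth limits SNHG9, SNHG18 and SNHG25 most.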

Other observations

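RefSeq now gives SNHG names to 4 genes that the deposited table holds under older symbols, so the rule on names did not take them. LRRC75A-AS1 (now SNHG29) measured 61.0 FPKM as Control and 115 with Bru in U251, and 67.1 and 84.0 in U87, with log2 ratios of 0.91 (0.86 to 0.96) and 0.32 (0.27 to 0.38). C6orf48 (now SNHG32) measured 31.9, 62.6, 15.1 and 19.4 FPKM, with log2 ratios of 0.97 and 0.35. LINC02001 (now SNHG30) had log2 ratios of 0.80 and 0.12. LINC00888 (now SNHG33) was the exception in U87, with 0.86 (0.62 to 1.13) in U251 and -0.46 (-0.81 to -0.13) in U87. All 4 were higher in Bru in U251, and none reached 2-fold. With them 6 of 28 genes were above 2-fold in U251, where 3.36% of all genes tested were.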
